A study of Mus musculus with 4 samples.

Results

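In mouse heart and tibialis anterior (TA, a fast hindlimb muscle), 2751 genes carried ribosome footprints on the 5′ untranslated region (5′UTR) of their mRNA in both tissues, out of 9906 genes listed for both. They were chosen by a 5′UTR of at least 30 nt, at least 5 RPM of coding footprints in both tissues and at least 0.35 RPM of 5′UTR footprints in both tissues. RPM is a read count scaled so that the coding reads of every library add up to nearly the same total, and 0.35 RPM was about 9.87 reads in heart and 10.00 reads in TA. For each gene the 5′UTR RPM was divided by the coding RPM in each tissue, and the log2 of heart over TA is called here the footprint ratio. The same ratio from total RNA is the RNA ratio, which shows how much 5′UTR the mRNA itself carried.

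The study sequenced ribosome-protected fragments (RPF, stretches of mRNA spared by nuclease because a ribosome covers them) and total RNA of C57BL/6J mice, all male and 10 weeks of age. The groups were heart RPF, heart RNA, TA RPF and TA RNA, with 1 library each. The number of animals behind a library was not given in the sources used here. In coding reads, the RPF libraries held about 28110000 for heart and 28520000 for TA, and the RNA libraries about 9270000 for heart and 16050000 for TA. No difference has a replicate check, so no p-value is given. Genes are called higher or lower in heart at 2-fold or more, and intervals are exact 95% intervals of a ratio of ratios that cover counting error only.

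A eukaryotic ribosome normally loads at the capped 5′ end of an mRNA, scans the 5′UTR and starts protein synthesis at an ATG. Where the 5′UTR holds an ATG of its own, ribosomes can translate a short upstream reading frame before the coding sequence, and such frames are known to lower or to regulate translation of the main protein. Footprints in a 5′UTR can come from such frames, from starts at other codons, or from ribosomes at the main start codon whose footprint reaches into the 5′UTR. The way in which reads that span the start codon were assigned was not given in the sources used here.

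For 9 genes the ATG and its surroundings are printed first, because the footprint ratios differed between genes with and without an ATG in the 5′UTR. The first 3 genes have no ATG in their 5′UTR and are shown at the coding start. All 3 were called higher in heart. The other 6 are shown at their first upstream ATG: Higd1a, Pecam1 and Amd2, which were called higher in heart, and Emg1, Tnks2 and Mknk1, which were called lower. Capitals mark the ATG, and the sequences are the sense strand of GENCODE M21 transcripts, 5′ to 3′.
Uqcrc2: actgctagagccATGaagctcctcagcagg
Atp5g3: ccaggaagaaagATGttcgcctgcgccaag
Ckmt2: ccaagaagaaggATGgccagtgccttctca
Higd1a: tcctccccaggcATGtgtgaggtcactgct
Pecam1: tgcccctgaggcATGgccggaagacagaac
Amd2: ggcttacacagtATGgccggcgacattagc
Emg1: ccctctttcaaaATGgcagctcgaaggaag
Tnks2: ggcgacgcggccATGggaccgtgccgactc
Mknk1: gtgctggaggagATGaagcagaagcaggtg

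On build GRCm38 the coding starts lie at chr7:120635278-120635307 on the plus strand for Uqcrc2, chr2:73910976-73911005 on the minus strand for Atp5g3 and chr13:91865316-91865345 on the minus strand for Ckmt2. The upstream ATG of Higd1a lies at chr9:121857967-121857996 on the minus strand, 495 nt before the coding start, and opens a frame of 34 codons. The upstream ATG of Pecam1 (chr11:106715122-106715151, minus strand) lies 87 nt before the coding start and opens 6 codons. Amd2 has its ATG at chr10:35711863-35711892 on the minus strand, 321 nt before the coding start, with a frame of 6 codons. The upstream frame of Emg1 at chr6:124712112-124712141 on the minus strand has 15 codons, that of Tnks2 at chr19:36834371-36834400 on the plus strand has 7 codons, and that of Mknk1 at chr4:115848226-115848255 on the plus strand has 8 codons. The 6 upstream frames all close within the 5′UTR. The deposited tables refer to an older build, so these positions come from the reference transcripts and not from the tables.

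The tissue labels were checked with marker genes in the RNA libraries. Cardiomyocyte markers summed to 110871 RPM in heart (10 of 10 listed) and 248 RPM in TA (7 of 10 listed). Fast skeletal fibre markers summed to 182 RPM in heart (6 of 10 listed) and 200451 RPM in TA (10 of 10 listed). Endothelial markers summed to 1795 RPM in heart and 448 RPM in TA (14 of 15 markers listed in each), macrophage and leukocyte markers to 584 RPM in heart and 139 RPM in TA, and fibroblast markers to 3904 RPM in heart and 2738 RPM in TA. Erythroid markers differed more, with 12499 RPM in heart (3 of 6 listed) and 472 RPM in TA (2 of 6 listed). Neither of the 2 erythroid markers listed for both tissues was among the 2751. Smooth muscle and pericyte markers summed to 2491 RPM in heart and 2336 RPM in TA. Slow fibre markers summed to 40398 RPM in heart (5 of 7 listed) and 101.5 RPM in TA (6 of 7 listed). The slow fibre list shares Myl2 and Myl3 with the cardiomyocyte list. Adipocyte markers summed to 384 RPM in heart (1 of 6 listed) and 126 RPM in TA (5 of 6 listed). The part of these other cell types in the footprint ratios was not tested. In such bulk samples, fewer cells of a type and less RNA per cell cannot be told apart.

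Footprints on 5′UTRs made up a larger part of the heart RPF library than of the TA RPF library. Over all listed genes the 5′UTR RPF came to 2.81% of coding RPF in heart and 1.36% in TA, whereas the 5′UTR RNA came to 3.02% of coding RNA in heart and 2.75% in TA. Over the 2751 genes the 5′UTR held 4.43% of coding RPF in heart and 2.06% in TA, while the 5′UTR RNA was 3.73% of coding RNA in heart and 3.35% in TA. Leaving out the genes with the most 5′UTR RPF (the 20 highest of each tissue, 33 genes in all) gave 4.16% in heart and 2.28% in TA.

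Gene by gene, the median 5′UTR held 7.12% of coding RPF in heart and 5.14% in TA. The footprint ratio had a median of 0.45 on the log2 scale, or 1.36-fold higher in heart, with quartiles of -0.16 and 1.07 and a range of -3.84 to 5.63. By the 2-fold rule 764 genes were higher in heart (27.8% of the 2751) and 157 were lower (5.71%). The counting interval lay wholly above 0 for 748 of the 764 and wholly below 0 for 148 of the 157, and it lay wholly beyond 2-fold for 340 and 38. When each gene was set against the median gene instead, 417 were 2-fold or more above it and 354 were 2-fold or more below it. Centring on the median puts as many genes above 0 as below by construction.

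**Figure D1:**
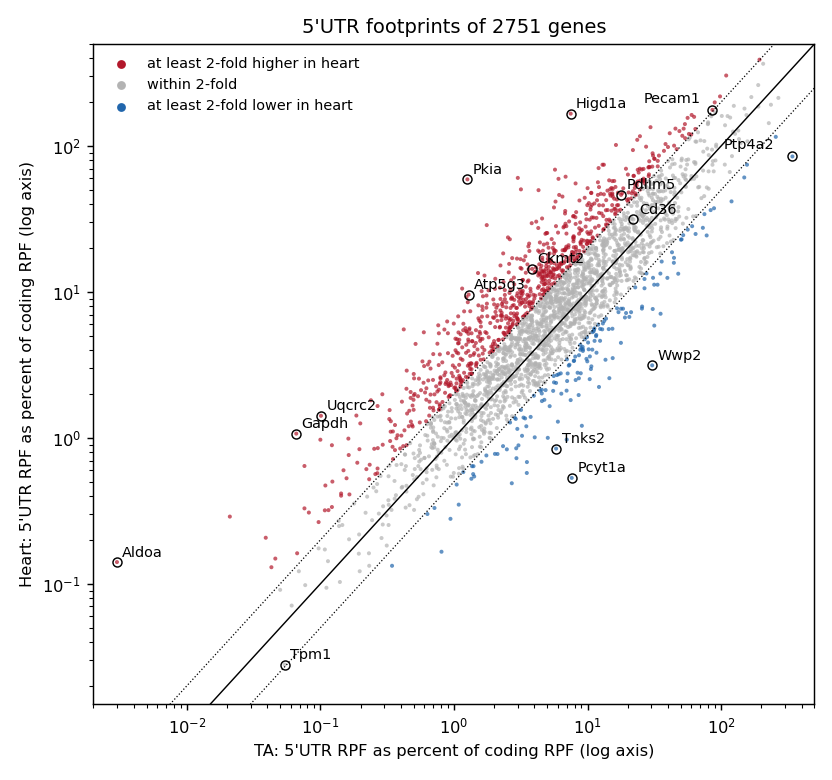
Each point is 1 of 2751 genes, with 5′UTR RPF as a percent of coding RPF in heart on the vertical axis and in TA on the horizontal axis, both logarithmic, and 1 library per axis. The solid line marks equal percents and the dotted lines 2-fold; 764 genes lie above the upper dotted line and 157 below the lower one, and 15 genes named in the text are circled.

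The mRNA itself did not show this shift. Among the 1541 genes with at least 1 RPM of 5′UTR RNA in both tissues, the RNA ratio had a median of -0.04 and quartiles of -0.31 and 0.20. By the 2-fold rule 16 genes were higher in heart (1.04%) and 39 were lower (2.53%), close to the 1.07% and 2.5% of all 2159 listed genes with that much 5′UTR RNA. The footprint ratio of these 1541 genes had a median of 0.47. After the RNA ratio was subtracted the median was 0.58, with 484 genes called higher (31.4%) and 81 called lower (5.26%). Of the 447 genes called higher by footprints that had an RNA ratio, 378 had an RNA ratio within 1.5-fold, and of the 79 called lower, 64 did.

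**Figure D2:**
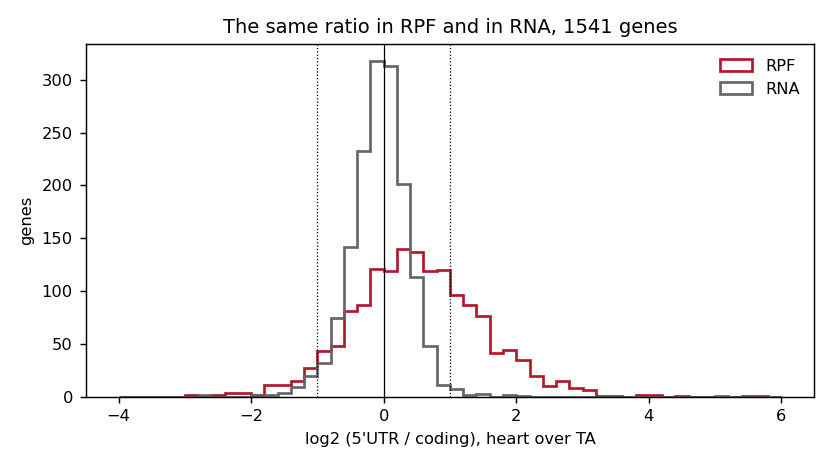
Number of genes (vertical axis) by log2 of the 5′UTR to coding ratio in heart over TA (horizontal axis), for RPF and for RNA of the same 1541 genes; dotted lines mark 2-fold. The RNA values stand around -0.04 and the RPF values are spread more widely around 0.47.

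The 3′UTR, the untranslated part behind the coding sequence, also held more of the heart footprints. Over all listed genes it came to 0.547% of coding RPF in heart and 0.276% in TA. Among the 495 of the 2751 genes with at least 0.35 RPM of 3′UTR RPF in both tissues, the 3′UTR to coding ratio had a median of 0.43, with 142 genes called higher in heart (28.7%) and 48 called lower (9.7%). The 5′UTR footprint ratio of those 495 genes had a median of 0.58. Both ratios share the coding RPF in the denominator. With the 3′UTR RPF in place of the coding RPF, the median 5′UTR ratio of the 495 genes was 0.14. With 1 library per tissue, a property of the library and a property of the tissue cannot be told apart.

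Genes with dense 5′UTR footprints in heart mostly had them in TA too. Per nucleotide, the median 5′UTR carried footprints at a log2 density of -1.17 relative to the coding sequence in heart and -1.64 in TA. In heart 661 genes, and in TA 468 genes, were denser on the 5′UTR than on the coding sequence, with 381 in both. Across the 2751 genes this density correlated between heart and TA with Pearson's r of 0.860 and Spearman's rho of 0.846; the genes are not independent replicates, and both tissues share the transcript models and lengths. The footprint ratio and the RNA ratio correlated weakly across 1541 genes (r of 0.189, rho of 0.0990).

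Genes without an ATG in the 5′UTR had the higher footprint ratios. The search covered the sense strand of the 2459 genes (89.4%) whose 5′UTR could be matched to a reference transcript. The 986 genes without an ATG had a median of 0.78, with 397 (40.3%) called higher in heart and 30 (3.04%) called lower. The 1473 genes with 1 or more ATG had a median of 0.27, with 288 (19.6%) higher and 106 (7.20%) lower. The RNA ratio had a median of -0.02 in genes without and -0.05 in genes with an ATG.

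The footprint ratio fell step by step with the number of ATGs. Its median was 0.78 for no ATG, 0.37 for 1, 0.24 for 2 or 3 and 0.10 for 4 or more. The genes with no ATG had a median of 5.04% of coding RPF on the 5′UTR in heart and 2.97% in TA, whereas those with 4 or more ATGs had 13.1% in heart and 12.2% in TA. The medians of the tissues thus lay closest in the class with the most upstream ATGs.

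**Figure D3:**
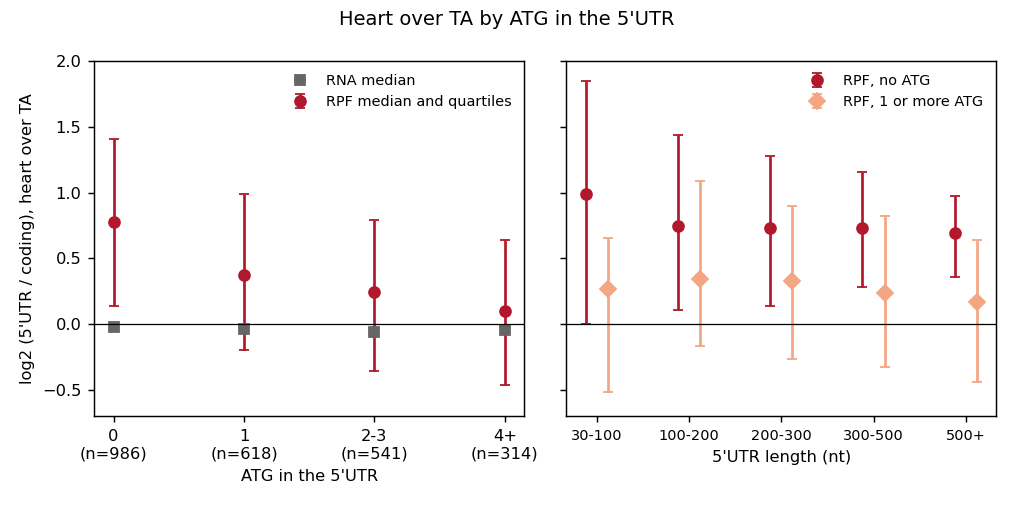
The log2 of the 5′UTR to coding ratio in heart over TA (vertical axes), as medians with bars for the quartiles over genes. The left panel sorts genes by the number of ATGs in the 5′UTR, with RNA medians as squares, and the right panel compares genes without and with an ATG by 5′UTR length; the genes without an ATG have the higher RPF median at every length.

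The difference between the classes was present at each length. Long 5′UTRs had lower footprint ratios, with a median of 0.70 below 100 nt and 0.22 at 500 nt or more. Within each length range the genes without an ATG stayed above those with one. The medians were 0.99 without and 0.27 with an ATG below 100 nt, 0.73 without and 0.33 with between 200 and 300 nt, and 0.70 (21 genes) without and 0.17 with at 500 nt or more. With only the 877 genes whose 5′UTR had the same length in both models, the medians were 0.71 and 0.25. Short coding sequences also had higher footprint ratios, from a median of 0.79 under 500 nt to 0.09 at 4000 nt or more.

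At the ends of the ranking the classes separated further, as a description of genes chosen by the ratio itself. The ends were taken among genes with at least 1 RPM on the 5′UTR in the higher tissue. Of the 100 highest of these genes 90 were matched, and 75.6% of the matched had no ATG in the 5′UTR. Of the 100 lowest genes 87 were matched, and 14.9% had none. Over all matched genes, without that minimum of 1 RPM, 40.1% had none. The 2751 genes held an upstream ATG more often than the other genes with a 5′UTR of 30 nt or more, 59.9% against 43.3%, but they also had longer 5′UTRs (median 241 nt over the 2751, against 123 nt over the rest of the listed genes). Between 200 and 300 nt the share was 64.3% of these genes and 64.7% of the others. Between 100 and 200 nt it was 38.6% and 38.9%, and between 300 and 500 nt it was 78.6% and 84.6%, in the same order.

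Among the gene groups with 4 or more measured genes, glycolysis and oxidative phosphorylation had the highest median footprint ratios. The counts of each group stand against 27.8% called higher and 5.71% called lower over all 2751 genes. Of 35 measured mRNAs of oxidative phosphorylation, the mitochondrial machinery that makes ATP with oxygen, 21 were called higher in heart (60.0%) and 2 lower, with a median footprint ratio of 1.49 against 0.45 over all genes. Their RNA ratio had a median of 0.00 over 32 genes. Together these 35 5′UTRs held 3.20% of their coding RPF in heart and 1.18% in TA. The 22 of them without an upstream ATG had a median of 1.93, and the 10 with one had 1.02. The median coding sequence of the 35 was 321 nt. Over all genes with coding sequences under 500 nt, 41.0% were called higher (median 0.79). Over the 53 genes with a mean coding RPF of 1000 RPM or more, 52.8% were called higher (median 1.27). The part of coding length and coding level in the values of this group was not tested.

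Uqcrc2, a core subunit of respiratory complex III, had 18.0 RPM of 5′UTR RPF in heart and 0.70 RPM in TA, beside 1269 RPM in heart and 690 RPM in TA on the coding sequence. The 5′UTR thus held 1.42% of coding RPF in heart and 0.101% in TA, a footprint ratio of 3.81 (interval 3.16 to 4.53), while its RNA ratio was 0.10. Atp5g3, which encodes the membrane ring subunit c of ATP synthase, had 270.8 RPM on the 5′UTR in heart and 8.04 RPM in TA, or 9.60% of coding RPF in heart and 1.29% in TA (footprint ratio 2.90, interval 2.70 to 3.09; RNA ratio 0.24). In both genes the 5′UTR footprints differed far more between the tissues than the coding footprints did.

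Atp5j2, another ATP synthase subunit, had 4.53 RPM in heart and 0.35 RPM in TA, with a footprint ratio of 3.28 and an RNA ratio of 0.89. The 2 members that were lower in heart both encode subunits of cytochrome c oxidase. Cox8a had 2.40% of coding RPF on its 5′UTR in heart and 5.61% in TA (footprint ratio -1.23, interval -1.85 to -0.58), and Cox6a2, the heart and muscle form of subunit 6a, had 0.583% in heart and 1.18% in TA (footprint ratio -1.01, interval -1.39 to -0.64). The RNA-corrected value of Cox6a2 was only -0.34, and Cox8a had no RNA ratio. By RNA-corrected values, 22 of the 32 genes of the group with an RNA ratio were called higher and 0 lower.

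Of 18 measured mRNAs of glycolysis and glycogen metabolism, 10 were called higher in heart (55.6%) and none lower (median 1.49; RNA median -0.08 over 15 genes). Their coding RNA was lower in heart, with a median log2 of -1.50 for heart over TA. Over the 120 genes with coding RNA more than 2-fold lower in heart, 49.2% were called higher (median 0.99). Of 16 matched genes, 13 had no upstream ATG, with a median of 1.45, and 3 had one, with 0.39. The 3′UTR ratio had a median of 1.08 over 10 genes. The part of these features in the values of this group was not tested. Gapdh, the glycolytic dehydrogenase, had 45.5 RPM on its 5′UTR of 50 nt in heart and 6.02 RPM in TA, although its coding RPF was lower in heart, at 4248 RPM in heart and 9127 RPM in TA. The 5′UTR RNA was 66.5 RPM in heart and 135 RPM in TA, in step with the coding RNA. The footprint ratio was 4.02 (interval 3.79 to 4.26) and the RNA ratio -0.10.

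Aldoa and Pfkm differed from Gapdh in their RNA. Aldoa, the muscle aldolase, had the highest footprint ratio of all, 5.63 (interval 4.87 to 6.48), with 4.32 RPM on the 5′UTR in heart and 0.56 RPM in TA. Its 5′UTR RNA was 80.7 RPM in heart and 14.6 RPM in TA while the coding RNA was 2823 RPM in heart and 17214 RPM in TA, so that the RNA ratio was 5.08 and the RNA-corrected value only 0.55. Pfkm, the muscle phosphofructokinase, had a footprint ratio of 3.81 and an RNA ratio of 1.85. For both genes the listed 5′UTR was a larger part of the heart mRNA than of the TA mRNA.

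Pkm, pyruvate kinase, had the most 5′UTR RPF of the group over both tissues, with 42.5 RPM in heart and 32.5 RPM in TA and a footprint ratio of 1.95 (RNA ratio 0.02). Against its 3′UTR RPF instead of its coding RPF the value of Pkm was -0.06. Near the low end of the group Phkg1, a catalytic subunit of phosphorylase kinase, had a footprint ratio of -0.42 (interval -1.28 to 0.34). Reads of Gapdh, Aldoa and several ribosomal protein mRNAs can be shared with near-identical pseudogenes, and the assignment of such reads was not given in the sources used here.

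Of 7 measured mRNAs of the tricarboxylic acid cycle and pyruvate dehydrogenase, 4 were called higher in heart (median 1.27). Mdh1, cytosolic malate dehydrogenase, had 181 RPM on the 5′UTR in heart and 15.3 RPM in TA, or 6.78% of coding RPF in heart and 1.62% in TA, with a footprint ratio of 2.06 and an RNA ratio of 0.07. Dld, the shared dehydrogenase subunit of such complexes, stood at 1.70. Mpc1, a subunit of the mitochondrial pyruvate carrier, was equal between the tissues with 0.865% in heart and 0.864% in TA.

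Of 12 measured mRNAs of fatty acid uptake and oxidation, 4 were called higher in heart and none lower (median 0.64). That share of 33.3% was near the 27.8% of all genes. Acadvl, the very long chain acyl-CoA dehydrogenase, had 77.1 RPM in heart and 5.53 RPM in TA (footprint ratio 2.19), and Pdk4, the kinase that switches off pyruvate dehydrogenase, had 37.8 RPM in heart and 10.7 RPM in TA (2.04). Cd36, the fatty acid transporter, had the most 5′UTR RPF of the 2751 genes in heart, 762 RPM in heart against 123 RPM in TA. Its coding RPF was also far higher in heart, so that the 5′UTR held 31.4% of it in heart and 22.1% in TA, a footprint ratio of 0.51 (interval 0.45 to 0.57). Etfdh, which passes electrons from fat oxidation to the respiratory chain, went the other way, with 2.32% in heart and 3.96% in TA.

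**Figure D4:**
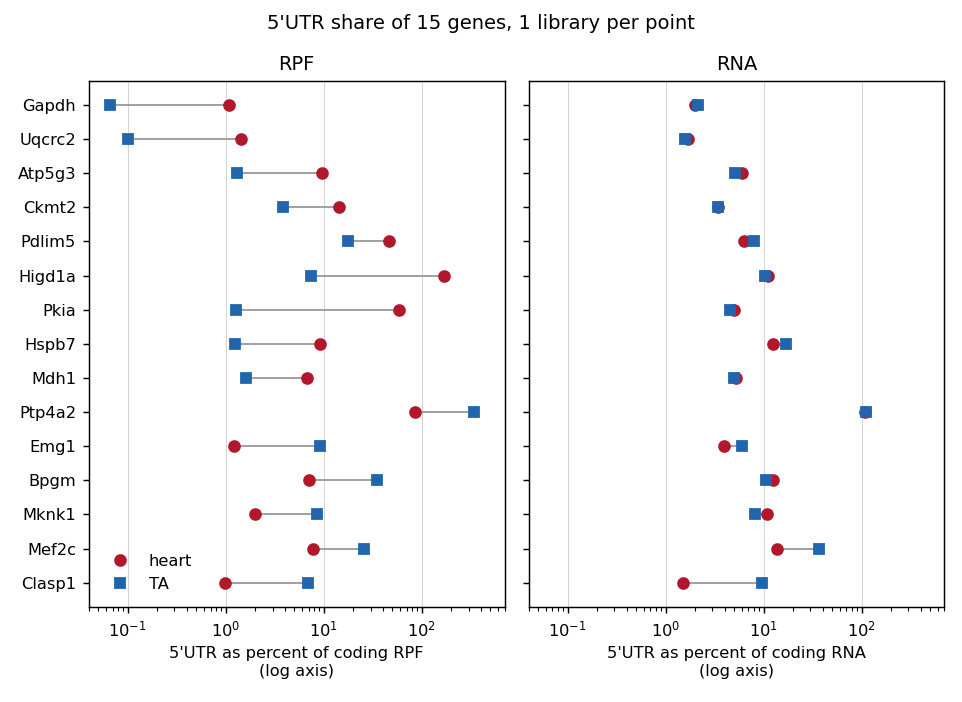
5′UTR reads as a percent of coding reads (logarithmic horizontal axes) for 15 genes, in the RPF libraries on the left and the RNA libraries on the right; circles are heart, squares are TA, and each point is 1 library. In RPF the upper 9 genes lie to the right in heart and the lower 6 to the right in TA, while in RNA the points of Mef2c and Clasp1 are the ones that lie far apart.

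Of 28 measured mRNAs of the Z-disc, the M-band and LIM proteins, which anchor and link the contractile filaments, 15 were called higher in heart (53.6%) and 1 lower (median 1.06; RNA median -0.06 over 24 genes). Pdlim5, a Z-disc scaffold, had 440.2 RPM on the 5′UTR in heart and 93.6 RPM in TA, or 46.3% of coding RPF in heart and 17.8% in TA (footprint ratio 1.38; RNA ratio -0.35).

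The LIM protein mRNAs Pdlim3 and Fhl1 differed widely in level between the tissues. Pdlim3 had a footprint ratio of 2.05 although its 5′UTR RPF was 0.99 RPM in heart and 10.1 RPM in TA, since its coding RPF was 5.17 RPM in heart and 218 RPM in TA. Against 3′UTR RPF the value of Pdlim3 turned to -3.98. Fhl1 was the one member lower in heart, at -1.03 (interval -1.65 to -0.45), with 0.99 RPM in heart and 8.81 RPM in TA. The RNA ratio of Fhl1 was 1.52, so its RNA-corrected value of -2.55 was the lowest of all 1541. Lmod2, which builds thin filaments in heart, had 3.53% in heart and 4.26% in TA.

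Few genes of the contractile filaments themselves met the minimum in both tissues. None of the 7 cardiac contractile genes listed in both tables did. Of the 10 on the fast skeletal list 2 did, Acta1 and Tpm1. Acta1, skeletal alpha-actin, had 0.92 RPM in heart and 116 RPM in TA on the 5′UTR but a footprint ratio of -0.20 (interval -0.82 to 0.36), since coding RPF differed as much. Tpm1, alpha-tropomyosin, had 13.8 RPM in heart and 16.5 RPM in TA, which was 0.0280% of coding RPF in heart and 0.0540% in TA. Though on the fast skeletal list, Tpm1 had more coding RPF in heart, 48932 RPM against 30641 RPM in TA. Its footprint ratio was -0.94, and its value against 3′UTR RPF 1.77. Ttn, titin, had 128 RPM in heart and 139 RPM in TA on the 5′UTR, with a footprint ratio of 1.10 and an RNA ratio of -0.04.

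Of 21 measured mRNAs of calcium handling and ion channels, 9 were called higher in heart and none lower (median 0.89). Asph, whose locus encodes junctin and other proteins of the calcium release unit, stood at 2.70 with an RNA ratio of 1.07, and Fxyd1, phospholemman, the regulator of the sodium pump, stood at 2.65 with an RNA ratio of -0.82. The 2 calcium pumps of the sarcoplasmic reticulum each had a high level in one tissue and a low one in the other. The intervals of both footprint ratios included 0 and were wide, with 29 reads of Atp2a2 in TA and 12 reads of Atp2a1 in heart. Atp2a2, the cardiac and slow form, had 366 RPM in heart and 1.01 RPM in TA on the 5′UTR, which was 0.977% of coding RPF in heart and 1.39% in TA (footprint ratio -0.51, interval -1.04 to 0.07). Atp2a1, the fast form, had 0.43 RPM in heart and 946 RPM in TA, or 1.80% in heart and 1.46% in TA (0.31, interval -0.67 to 1.10). Casq1, the calcium buffer of fast muscle, had 1.42 RPM in heart and 183 RPM in TA with a footprint ratio of 0.85, and Jph2, junctophilin, which ties the membranes of the release unit, had 80.1% in heart and 54.8% in TA. Against 3′UTR RPF the value of Jph2 was -1.40, while its footprint ratio was 0.55.

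Of 19 measured transcription factor mRNAs of muscle and heart, 6 were called higher in heart and 1 lower (median 0.89). These shares, 31.6% and 5.26%, were near the 27.8% and 5.71% of all genes. Tead1, a partner factor of the Hippo pathway, stood at 2.01, and Mef2a, a MADS-box factor of muscle genes, at 1.61 with 23.8 RPM in heart and 4.69 RPM in TA and an RNA ratio of -0.03. Its relative Mef2c was the one lower in heart, at -1.73 (interval -2.01 to -1.46), with 6.20 RPM in heart and 14.8 RPM in TA. The RNA ratio of Mef2c was -1.42, from a 5′UTR RNA of 5.99 RPM in heart and 79.7 RPM in TA, and the RNA-corrected value was -0.31.

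**Figure D5:**
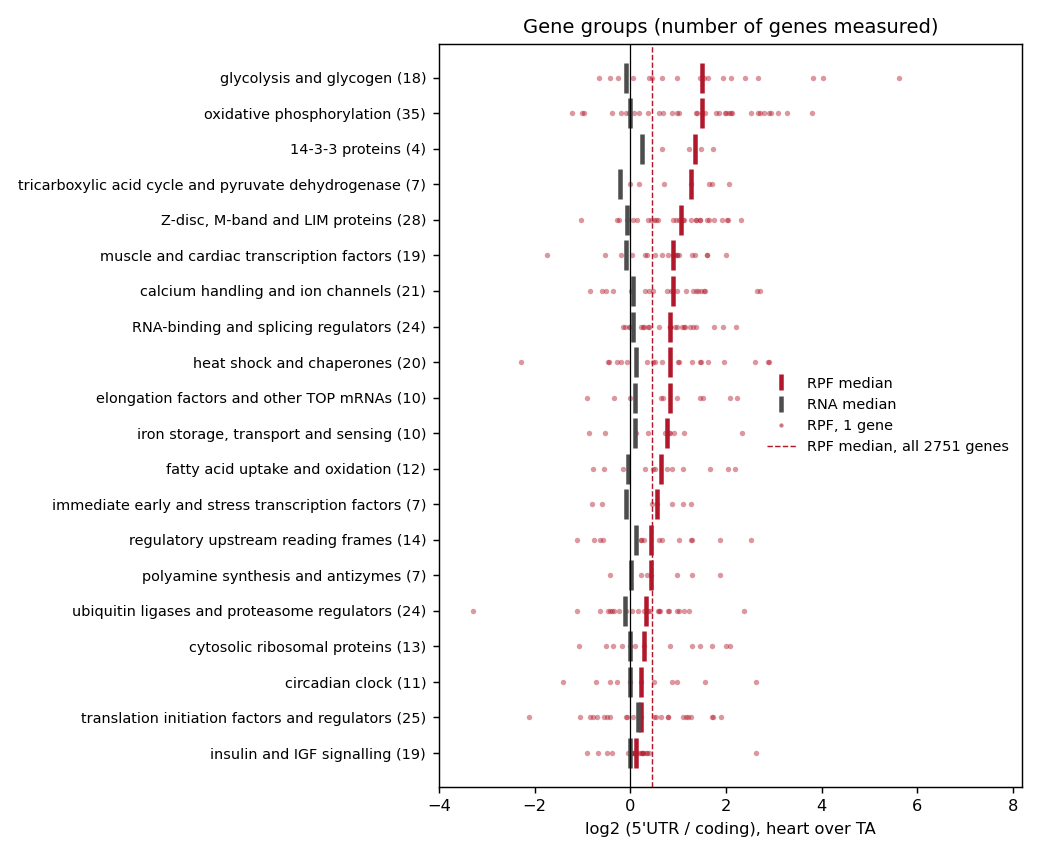
Gene groups with at least 4 measured genes, with the number measured in brackets. The horizontal axis is log2 of the 5′UTR to coding ratio in heart over TA; dots are single genes in RPF, red bars the RPF medians, dark bars the RNA medians, and the dashed line the RPF median of 0.45 over all 2751 genes. Glycolysis and oxidative phosphorylation stand highest at 1.49 and insulin signalling lowest at 0.13.

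Chaperones and RNA regulators also lay above the median of all genes. Of 20 measured heat shock and chaperone mRNAs 10 were called higher in heart and 1 lower (median 0.84). Hspb7, a small heat shock protein of heart and muscle, had 98.3 RPM in heart and 1.19 RPM in TA (footprint ratio 2.89; RNA ratio -0.44), and Dnajb4, an Hsp40 co-chaperone, was lower at -2.28 with 0.71 RPM in heart and 0.73 RPM in TA. Of 24 RNA-binding and splicing regulators 9 were higher and none lower (median 0.84). Rbm24, a muscle splicing regulator, had 138 RPM in heart and 51.7 RPM in TA, or 219% of coding RPF in heart and 98.2% in TA. Of 4 measured 14-3-3 mRNAs, phosphoserine-binding adaptors, 3 were higher (Ywhab at 1.74, Ywhag at 1.49 and Ywhae at 1.22), and the fourth, Ywhaz, had 0.67.

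The translation machinery was mixed. Of 10 measured elongation factors and other mRNAs with a terminal oligopyrimidine tract, the start motif that couples them to growth signals, 4 were called higher in heart (median 0.83), among them Eef2 with 82.9 RPM in heart and 18.4 RPM in TA (1.47) and Tpt1 (2.24). Of 25 initiation factors and their regulators 7 were called higher and 2 lower, and these shares of 28.0% and 8.00% were near those of all genes. Their median of 0.22 lay below that of all genes. The 2 kinases of the cap-binding factor eIF4E stood at opposite ends of this group. Mknk2 had 17.2% of coding RPF on the 5′UTR in heart and 4.58% in TA (1.91, interval 1.50 to 2.32), whereas Mknk1 had 1.97% in heart and 8.58% in TA (-2.13, interval -3.04 to -1.30). Eif4g1, the scaffold of the cap-binding complex, was at -0.48 with 31.7 RPM in heart and 55.8 RPM in TA. Of 66 cytosolic ribosomal protein genes listed, 13 were measured, with 5 higher and 1 lower (median 0.28).

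Genes known for regulatory upstream frames were measured next. Of 14 such mRNAs 5 were called higher in heart and 1 lower, with a median of 0.44 against 0.45 over all genes. Amd2, a copy of the polyamine enzyme S-adenosylmethionine decarboxylase whose reads can be shared with its near-identical relative, had 12.1% in heart and 3.29% in TA (1.88; RNA ratio 0.18), and against 3′UTR RPF its value turned to -2.78. Azin1, antizyme inhibitor, had 98.4% in heart and 40.0% in TA (1.30). Eif5, the initiation factor that helps to select the start codon, had 63.1% in heart and 54.1% in TA (0.22), and Asnsd1, an asparagine synthetase domain gene, had 28.2% in heart and 60.7% in TA (-1.11, interval -1.66 to -0.56).

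The 3 Ptp4a phosphatases, whose 5′UTRs hold 6 or more ATGs each, differed from each other. Ptp4a2 had 7.69 RPM in heart and 46.3 RPM in TA on the 5′UTR, or 84.8% of coding RPF in heart and 342% in TA, a footprint ratio of -2.01 (interval -2.33 to -1.70) with an RNA ratio of -0.03. Ptp4a1 had 143% in heart and 228% in TA (-0.67). Ptp4a3 had 71.2% in heart and 41.5% in TA (0.78), and against 3′UTR RPF its value was -1.04.

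Insulin signalling and the clock lay below the median of all genes. Most of their matched genes had an upstream ATG, 14 of 17 for insulin signalling and 10 of 11 for the clock. Over all matched genes with an upstream ATG the median was 0.27. Of 19 measured mRNAs of insulin and IGF signalling 1 was called higher in heart and none lower (median 0.13). The one was Slc2a4, the insulin-regulated glucose transporter GLUT4, with 7.62 RPM in heart and 1.57 RPM in TA, or 1.65% of coding RPF in heart and 0.268% in TA (2.63, interval 2.15 to 3.12; RNA ratio -0.01). Of 11 clock genes 2 were higher and 1 lower (median 0.23), with the repressor Bhlhe41 at 2.63 and the core repressor Per1 at -1.40. Of 24 ubiquitin ligases and proteasome regulators 4 were higher and 2 lower (median 0.33).

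Genes of other cell types were measured in smaller number. Of 12 endothelial genes 2 were called higher in heart and 1 lower (median 0.24). Pecam1, the endothelial adhesion molecule CD31, had more footprints on its 5′UTR of 229 nt than on its coding sequence in heart, 192 RPM against 109 RPM, and somewhat fewer in TA, 44.2 RPM against 51.3 RPM (footprint ratio 1.04; RNA ratio 0.14). Ets1, a transcription factor, was at 1.84 and Flt1, a VEGF receptor, at -1.77. Of 10 fibroblast genes 2 were higher and none lower (median 0.19).

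Beside Aldoa, Gapdh, Pfkm and Uqcrc2, the highest footprint ratios among genes with at least 1 RPM on the 5′UTR in the higher tissue belonged to genes of varied roles. Pkia, the inhibitor of protein kinase A, had 18.2 RPM in heart and 1.08 RPM in TA while its coding RPF was 30.8 RPM in heart and 85.7 RPM in TA, a footprint ratio of 5.55 (interval 5.01 to 6.13) with an RNA ratio of 0.14. Higd1a, a small mitochondrial protein of the respiratory chain, had 63.0 RPM in heart and 2.17 RPM in TA, or 167% of coding RPF in heart and 7.48% in TA (4.48, interval 4.09 to 4.89; RNA ratio 0.12). Ptges3, the Hsp90 co-chaperone p23, stood at 4.03 with an RNA ratio of -0.25.

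Ksr1, a scaffold of the MAP kinase cascade, had similar 5′UTR RPF, 3.15 RPM in heart and 2.83 RPM in TA, but coding RPF of 5.21 RPM in heart and 94.1 RPM in TA (4.33). Its 3′UTR ratio was 5.59, so that its value against 3′UTR RPF turned to -1.26, and its 5′UTR RNA was under 1 RPM in both tissues, so no RNA ratio is given. The other 4 were Ccdc21 at 3.99, Rtn4, the reticulon Nogo, at 3.72, the splicing factor Sf3b5 at 3.59 and Ier3ip1, a protein of the secretory pathway, at 3.54. The RNA ratio of Ier3ip1 was -1.01. The other 3 had under 1 RPM of 5′UTR RNA in TA, so no RNA ratio is given. In Rtn4 the 5′UTR RNA was 2.57 RPM in heart and 0.50 RPM in TA (8 reads). Its coding RNA was 92 RPM in heart and 487 RPM in TA, so the listed 5′UTR was a larger part of the heart mRNA.

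By the same minimum of 1 RPM, the lowest footprint ratio was that of Pcyt1a, the rate-limiting enzyme of phosphatidylcholine synthesis. It had 0.39 RPM on the 5′UTR in heart and 6.61 RPM in TA with coding RPF of 73.3 RPM in heart and 86.8 RPM in TA, a footprint ratio of -3.84 (interval -4.87 to -2.96). Wwp2, a ubiquitin ligase, had 1.35 RPM in heart and 7.42 RPM in TA (-3.28). Tnks2, a tankyrase, had 0.78 RPM in heart and 8.11 RPM in TA (-2.78). All 3 had under 1 RPM of 5′UTR RNA in both tissues.

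Emg1, which modifies ribosomal RNA, had 0.46 RPM in heart and 2.10 RPM in TA (-2.91, interval -3.90 to -2.01; RNA ratio -0.63), and Bpgm, the enzyme that makes 2,3-bisphosphoglycerate, had 3.15 RPM in heart and 8.32 RPM in TA (-2.31; RNA ratio 0.23). In Clasp1, a microtubule-binding protein, the RNA moved as far as the footprints: the footprint ratio was -2.84, the RNA ratio -2.70 and the RNA-corrected value -0.14. Adprhl1, Rbm15, Tmem100, Anapc1 and Mt1 lay between -2.61 and -2.33.

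Altogether 55 of the 1541 genes had an RNA ratio past 2-fold, and 16 of them had a footprint ratio past 2-fold in the same direction, 8 each way. Besides Aldoa and Pfkm the higher ones were Grina, Amotl1, Asph, Bhlhe41, Ube2s and Trdn, and besides Clasp1 and Mef2c the lower ones were Adprhl1, Slmap, Ehbp1, Ccbl1, Atp5sl and Rara. In Ehbp1 the RNA ratio of -2.63 was further from 0 than the footprint ratio of -2.13.

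The minimum of 0.35 RPM sets which genes are measured. It was applied to 6177 genes with a 5′UTR of at least 30 nt and 5 RPM or more of coding RPF in both tissues. In heart 3732 of them passed and in TA 2890, with 981 passing in heart alone, 139 in TA alone and 2306 in neither. The genes measured in both thus leave out many with few 5′UTR footprints in TA. Among all 6752 genes with any 5′UTR RPF in both tissues, 31% met the rule as higher in heart and 11.2% as lower. Just inside the minimum lay 1110067D22Rik with 0.35 RPM in heart and 0.35 RPM in TA (footprint ratio 1.17), and just outside it lay Asb6 with 0.32 RPM in heart and 0.35 RPM in TA (-0.05).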

How the data were processed

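The deposited values are RPM per the file headers, given for the coding sequence, 5′UTR and 3′UTR of a transcript model, beside the length of each part, which is in nucleotides. Per the labels, the mapping was to RefSeq transcripts. The submitters' processing notes list Bowtie and mm9, without a Bowtie version; trimming was not given in the sources used here. Per the labels' protocols, tissue was lysed in cycloheximide, digested with RNase I and pelleted, and short fragments were cut from a gel. From the steps between low values, 1 read was worth 0.0354 RPM in the heart footprints and 0.0350 RPM in the TA footprints, and 0.107 RPM and 0.0621 RPM in the RNA of heart and TA. Values are rounded to within 0.005 RPM, a larger part of an RPF step than of an RNA step, so recovered RPF reads are the less certain. With 1 library per group no count test leaves residual degrees of freedom.

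Rows of the tissues were paired by symbol and equal part lengths. The RNA ratio needed 1 RPM of 5′UTR RNA in both tissues. 5′UTR sequences came from GENCODE M21 transcripts that cover at least 80% of the deposited 5′UTR. Intervals are exact conditional odds-ratio intervals at 95%. The computation was tested on simulated data. The genes, gene groups and the rule for named genes were chosen with earlier results of these data known. That rule takes the 12 highest and 12 lowest footprint ratios at 1 RPM or more, the 6 highest and lowest RNA-corrected values, the 6 most abundant of each tissue, and the 2 highest, 2 lowest and most abundant of each group; the genes whose RNA ratio moved with the footprints, and those with 5′UTR footprints in one tissue, were named after their values were seen. Some genes that the rule selects are not reported here. Alternatives changed the minima, a pseudocount, the centring, the denominator and the pairing. Python 3.11.15, numpy 2.4.6, pandas 2.3.3, scipy 1.17.1 and matplotlib 3.10.9 were used.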

Additional observations from a re-analysis of the deposited data

How the results depend on the processing

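The median footprint ratio of 0.447 was 0.411 with a 5′UTR minimum of 1 RPM, 0.505 with 0.35 RPM in either tissue and a pseudocount of 0.1, 0.208 with no minimum and that pseudocount, 0.540 at 20 RPM of coding RPF, 0.397 with the pseudocount alone, 0.580 minus the RNA ratio, 0.137 against 3′UTR RPF and 0.000 by construction when centred. The settings test different numbers of genes, and the main counts at least 2-fold higher and lower in heart were 764 and 157 of 2751. In the same order of settings, the counts were 409 and 74 of 1551, 1137 and 236 of 3871, and 1363 and 706 of 6177. Next came 470 and 56 of 1491, 687 and 148 of 2751, and 484 and 81 of 1541. The last settings gave 149 and 94 of 495, and 417 and 354 of 2751. The RNA counts of 16 and 39 of 1541 became 8 and 16 of 1000 at 2 RPM. The RNA-corrected counts of 484 and 81 of 1541 became 308 and 48 of 1000 at 2 RPM. They became 251 and 247 of 1541 when centred on a median then at 0.000. The median without an upstream ATG was 0.776 and with one 0.265; over 5′UTRs of equal length they were 0.712 and 0.254, an alternative chosen after seeing the data, as was leaving out the most abundant genes (heart 4.159%, TA 2.283%).

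For single named genes, 3′UTR RPF as the denominator turned the sign of 12 of the 44 genes that could be tested. Of these, 7 were called at 2-fold: Ksr1 at -1.258, Pkm at -0.062, Pdlim3 at -3.975, Amd2 at -2.777, Rpl41 at -0.884, Jun at -0.899 and Klhl31 at -0.464. The other 5 lay within 2-fold: Jph2 at -1.398, Ptp4a3 at -1.039, Ogdh at -0.221, Dbp at -0.461 and Tpm1 at 1.767. Centring turned 5 of 103, all within 2-fold (Sparcl1 at -0.208, Atp2a1 at -0.141, Mpc1 at -0.445, Ogdh at -0.256 and Eif5 at -0.225), and Mpc1, at 0.002, also turned with the pseudocount (-0.081) and minus the RNA ratio (-0.510). The cause was not tested. No paired analysis was possible because each group has 1 library. Nothing here separates tissue from library, and the median gene had 70 reads on the 5′UTR in heart and 37 in TA.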

Other observations

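Some genes had 5′UTR footprints in only one tissue or nearly so, although their coding sequence passed 5 RPM in both. The base was the 6177 genes with a 5′UTR of at least 30 nt and 5 RPM or more of coding RPF in both tissues. With at least 2 RPM on the 5′UTR in one tissue and under 0.1 RPM in the other, 12 genes were on the heart side and 5 on the TA side. Tnnt2, cardiac troponin T, had 140 RPM in heart and 0.04 RPM in TA on the 5′UTR, beside 12693 RPM in heart and 11.0 RPM in TA on the coding sequence. Its 5′UTR RNA was 123 RPM in heart and 0.19 RPM in TA. At so low a coding level, the 5′UTR share of heart would leave very few reads in TA. The value of Tnnt2 thus does not show a different share. The same limit applied to Tnnc1 on the heart side and to Mybpc2, Myl1, Neb and Tnnt3 on the TA side. In each of these 5 genes the share of the higher tissue would leave under 0.1 RPM in the other tissue. Tnnt3, for example, had 6.34 RPM of coding RPF in heart and 19084 RPM in TA, with 23.6 RPM on its 5′UTR in TA. In Crip2 and Slc8a1 the share of heart would leave little more than 0.1 RPM in TA. Fuca2, an alpha-fucosidase, had 15.4 RPM in heart and was listed at 0 in TA, with 130 RPM of coding RPF in heart and 6.33 RPM in TA. Parp1, a DNA repair enzyme, had 2.13 RPM in heart and 0.07 RPM in TA although its coding RPF was lower in heart, at 86.1 RPM against 117 RPM in TA. On the TA side Asb5, an adaptor of a ubiquitin ligase, was listed at 0 in heart and had 38.7 RPM in TA, with coding RPF of 17.3 RPM in heart and 351 RPM in TA. Its 5′UTR RNA was 0.11 RPM in heart and 17.1 RPM in TA.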
